A study of Mus musculus with 22 samples.

Results

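Cytosolic ribosomal protein genes were followed in splenic immature B cells of mice. They were the rows whose symbol names a large-subunit (Rpl), small-subunit (Rps), P-stalk (Rplp) or Rpsa gene, with a mean of at least 10 normalized counts in the table. The same 84 symbols matched in each of 3 tables, and 80 of 21880 rows in experiment 1, 82 of 26097 in experiment 2 and 82 of 25676 in the culture table passed the minimum. Rpl3l and Rpl39l stayed below it in every table, and Rpl24 and Rps12l1 stayed below it in experiment 1. The 82 genes held 43 large-subunit genes, 30 small-subunit genes, 3 P-stalk genes and 6 paralogs or copies (Rpl7l1, Rpl22l1, Rpl36al, Rps27l, Rps4l and Rps12l1). Of these, 80 were annotated as protein-coding, and Rps4l and Rps12l1 were annotated as pseudogenes.

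The 22 libraries were made from total RNA of B220+CD93+ cells with a stranded total RNA kit, and the question was how the presence or absence of γδ T cells changes these B cells. Experiment 1 compared 3 untreated with 3 depleted libraries of the Tcrd-GDL strain, in which diphtheria toxin removes γδ T cells. The depleted mice received 2 injections of 15 ng toxin per gram of body weight 48 h apart and were analysed on day 8. Experiment 2 had 5 untreated and 2 depleted Tcrd-GDL libraries, and 3 libraries from Tcrd-H2BeGFP mice given the same toxin course, called toxin control here. The toxin control differed from the untreated group in strain and in toxin together, and these cannot be told apart. The culture libraries came from untreated Tcrd-H2BeGFP B cells kept alone (3 libraries) or with γδ T cells (3 libraries). The labels do not say whether the Tcrd-H2BeGFP strain carries a toxin receptor, nor whether each library came from its own mouse or culture, so the p-values cover library-to-library spread, which may be technical. In bulk RNA, fewer cells of a type and less RNA per cell cannot be told apart.

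A ribosome joins a large and a small subunit, each built of ribosomal RNA and many small proteins that are needed in matched amounts. In mammals the genes of these proteins are transcribed at high levels, and their mRNAs carry a run of pyrimidines at the very 5′ end, the terminal oligopyrimidine (TOP) tract, through which mTORC1 and the La-related protein LARP1 control their translation. B cells adjust their ribosome content strongly when they leave the resting state and grow. RNA levels, as measured here, do not report that translational step.

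The start of the gene is shown for 5 members that the results turn on and that hold such a run, with the run of a C and at least 4 further pyrimidines, counted where it begins within 5 bases of the listed start, in capitals. Each window holds 15 bases on either side of the boundary before the RefSeq start (GRCm38.p6), on the gene's strand.
Rps21 (chr2:180257364-180257393, plus strand): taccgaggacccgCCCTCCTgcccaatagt
Rpl38 (chr11:114668565-114668594, plus strand): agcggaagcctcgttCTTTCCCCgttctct
Rps27 (chr3:90213634-90213663, minus strand): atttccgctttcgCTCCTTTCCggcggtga
Rps6 (chr4:86857353-86857382, minus strand): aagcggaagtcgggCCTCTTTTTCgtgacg
Rpl28 (chr7:4792950-4792979, plus strand): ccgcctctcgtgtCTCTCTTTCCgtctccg

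The windows of 3 further members had no such run that begins within 5 bases of the listed start, although that of Rpl4 holds one further upstream. They are shown because Rps28 was among the members that differed most in experiment 2 while Rpl4 and Rpl7l1 were among those that differed least.
Rps28 (chr17:33824548-33824577, minus strand): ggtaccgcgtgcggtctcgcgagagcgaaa
Rpl4 (chr9:64173372-64173401, plus strand): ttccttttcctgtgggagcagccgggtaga
Rpl7l1 (chr17:46782642-46782671, minus strand): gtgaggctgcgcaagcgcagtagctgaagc

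Of the 82 members, 60 had a promoter in the RefSeq table of 27025 genes (250 bases before to 50 bases after the start). A C followed by at least 4 pyrimidines within 5 bases of the start, on the gene's strand, was present in 29 of the 60 (48.3%) and in 21.2% of all genes. CTTTCC, which is itself such a run, occurred on the gene's strand anywhere in the 300 bases in 41.7% of members and 16.0% of all genes. CCGGAAG, the core that ETS-family factors such as GABP bind, was found on either strand in 24 of the 60 members (40.0%) against 9.93% of all genes. AAGATGG, which YY1 binds, was found on either strand in 16.7% against 7.28%. The 120 bases before the outermost annotated start of Rps21 held CCGGAAG at 2 places, those of Rps6 held it once and those of Rps27 held AAGATGG once, in capitals below.
Rps21 (chr2:180257257-180257376, plus strand): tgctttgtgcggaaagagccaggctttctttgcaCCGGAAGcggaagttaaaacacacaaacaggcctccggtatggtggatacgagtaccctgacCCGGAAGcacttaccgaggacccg
Rps6 (chr4:86857413-86857532, minus strand): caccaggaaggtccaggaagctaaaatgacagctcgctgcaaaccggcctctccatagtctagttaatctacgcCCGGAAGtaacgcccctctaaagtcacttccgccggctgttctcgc
Rps27 (chr3:90213652-90213771, minus strand): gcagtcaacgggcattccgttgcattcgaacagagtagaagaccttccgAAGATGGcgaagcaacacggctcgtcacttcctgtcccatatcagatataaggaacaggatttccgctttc

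Reads recovered from the normalized values ranged from 9794413 to 36840455 per library, and the members took between 4.56% and 7.18% of them. As a share of reads on protein-coding genes, the members took from 7.56% in toxin control 2 to 16.3% in the culture library alone 3. All 7 B cell markers were present in every library, with sums of 46360 to 156176 normalized counts. Cd93 and Cd24a, which mark immature B cells, were above 0 in every library. Rag2, on the same list of 6, was at 0 in some libraries of experiment 1. T cell markers were present too, with sums of 1924 to 7610. Trdc, Trgc1 and Trgc2 had no row under these symbols in any of the 3 tables, so they were not analysed here. Depleted 1 of experiment 1 stood apart, with 28.7% of its reads on the gene Gm23935 against 16.1% to 20.4% in the other libraries of that table. The tables were normalized separately, so levels are compared within a table only.

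Per kilobase of mRNA, Rplp2, Rplp1 and Rpl26 were the highest members in experiment 2, with means over all 10 libraries of 104004, 80278 and 75971 normalized counts per kb. Rplp1 and Rplp2 form the acidic stalk that recruits elongation factors, and Rpl26 sits near the exit of the large subunit. The same 3 genes led in experiment 1, at 40028 for Rplp2, 28182 for Rplp1 and 31932 for Rpl26, while in culture Rplp2 (87533) and Rplp1 (65598) were followed by Rps27 (57190). The lowest protein-coding members apart from Rpl24 were the paralogs Rps27l (976 per kb in experiment 2), Rpl7l1 (1841) and Rpl22l1 (2989). These levels depend on the transcript chosen for the length. For Rps20 the annotation's main transcript has 3706 bases, which places it at 7073 per kb in experiment 2.

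Rpl24, a large-subunit protein, had between 22.4 and 46.2 normalized counts in the libraries of experiment 2, far below the other subunit members. Its annotation overlaps Gm28037 on the same strand, and the part of that overlap in its low value was not tested. A pseudogene named after the member exists in the annotation for 61 of the 82 genes and a small RNA gene lies inside 31 of them, so reads of near-identical copies may be split or shared in a way that the values do not show.

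In experiment 2 ribosomal protein mRNA was lower in the toxin control than in the untreated libraries, as normalized by the authors. Of 82 members, 74 fell and 0 rose at an adjusted p under 0.05 in limma with Benjamini-Hochberg adjustment over 13364 genes, against 8.34% of all tested genes called lower and 7.32% called higher. The median log2 change of the members was -0.60 (a change of -34.1%), and that of all tested genes was 0.00. The 3 toxin control libraries lay below all 5 untreated libraries for 71 members, which 11.7% of all tested genes also did. The members took 11.7%, 12.7%, 13.8%, 12.8% and 10.1% of the protein-coding reads in untreated 4 to 8, and 9.20%, 7.56% and 9.14% in toxin control 1 to 3, so the ranges of the 2 groups did not overlap. Of all reads they took 5.70%, 5.80%, 6.02%, 5.71% and 5.33%, and 5.08%, 4.56% and 5.26%. By that measure the groups lay closer, with toxin control 3 just below untreated 8. The share of reads on protein-coding genes differed between the groups too, as given below.

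**Figure D1:**
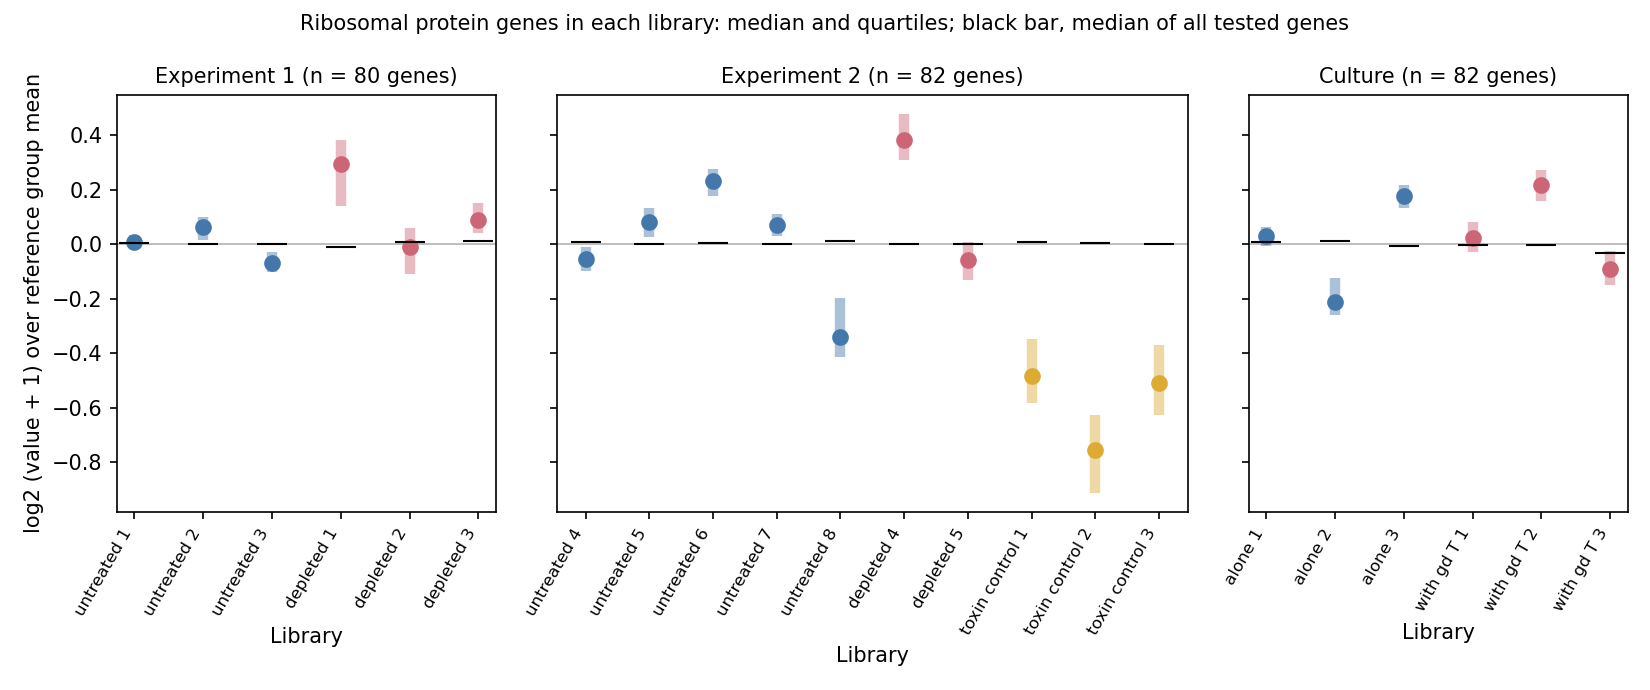
Median (point) and quartiles (bar) over the ribosomal protein genes of log2(value + 1) minus the mean of the reference group (untreated, or alone in culture), in each library; the black bar is the median of all tested genes. The 3 toxin control libraries sit at -0.48, -0.76 and -0.51, below untreated 8 at -0.34, while depleted 4 at 0.38 and depleted 5 at -0.06 lie apart from each other.

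The shift did not have one size. All 30 small-subunit genes fell, with a median of -0.68, as did 38 of 43 large-subunit genes (median -0.53) and the 3 P-stalk genes (median -0.67). Of the 6 paralogs or copies, Rps27l, Rpl22l1 and Rpl36al fell and the other 3 did not pass. The 4 members on the X chromosome, Rpl10, Rpl36a, Rpl39 and Rps4x, all fell, with a median of -0.54. Differences between these subgroups were not tested.

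Rps21 (chr2:180257377-180258445 in GENCODE M21, GRCm38), a small-subunit protein of 249 coding bases, had 17854, 20832, 24610, 21275 and 13036 normalized counts in the untreated libraries 4 to 8 and 10463, 8019 and 9634 in the 3 toxin control libraries. Every toxin control library lay below every untreated one, untreated 8 being the closest. Its log2 change was -1.04 ± 0.17 (SE, adjusted p = 0.00372, limma), the lowest among the members that passed.

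Rps28 (chr17:33819027-33824562), a small-subunit protein near the mRNA exit site, had 18527, 22214, 24378, 22767 and 15413 normalized counts in the untreated libraries and 12626, 9088 and 11522 in the toxin control. The groups did not overlap. Its log2 change was -0.89 ± 0.16 (SE, adjusted p = 0.00472, limma).

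Rpl38 (chr11:114668524-114672331), a large-subunit protein known for its part in the translation of Hox mRNAs in the embryo, had 9988, 12840, 13590, 12508 and 8118 normalized counts in the untreated libraries and 7128, 5272 and 6670 in the toxin control. Untreated 8 again came closest to the toxin control without reaching it. The log2 change was -0.83 ± 0.17 (SE, adjusted p = 0.00741, limma).

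The smallest changes that still passed were those of Rpl29 (-0.31 ± 0.09), Rpl36al (-0.32 ± 0.10) and Rpl5 (-0.34 ± 0.11, SE). Rpl5 and Rpl11, which join the 5S ribosomal RNA and can bind MDM2 when ribosome assembly fails, had untreated means of 27341 ± 2239 and 10505 ± 817 (SD, n = 5) and toxin control means of 21596 ± 2652 and 7935 ± 746 (SD, n = 3). Both fell, Rpl11 by 0.41 ± 0.10 on the log2 scale (adjusted p = 0.0185, limma). Rps6, the small-subunit protein that S6 kinase phosphorylates, was at 15800 ± 1450 (SD, n = 5) in untreated and 12403 ± 1476 (SD, n = 3) in toxin control libraries. Its log2 change of -0.35 ± 0.12 passed at an adjusted p of 0.0483 in limma.

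Rplp0, the base of the P stalk and a common reference gene in quantitative PCR, had 53637, 49855, 57628, 51405 and 42359 normalized counts in the untreated and 37531, 30477 and 41085 in the toxin control libraries. The highest toxin control library lay just below the lowest untreated one. Its change was -0.49 ± 0.13 (SE, adjusted p = 0.0231, limma), but after quantile normalization it was -0.09 with an adjusted p of 0.416.

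Rpsa, which also serves as a laminin receptor at the cell surface, fell by 0.49 ± 0.15 on the log2 scale, from 86806 ± 8826 (SD, n = 5) to 61871 ± 8020 (SD, n = 3, adjusted p = 0.0335, limma). After quantile normalization its adjusted p was 0.164. Rpl41, the shortest ribosomal protein, fell by 0.56 ± 0.13 and was still called after quantile normalization (-0.52, adjusted p = 0.0126, limma).

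**Figure D2:**
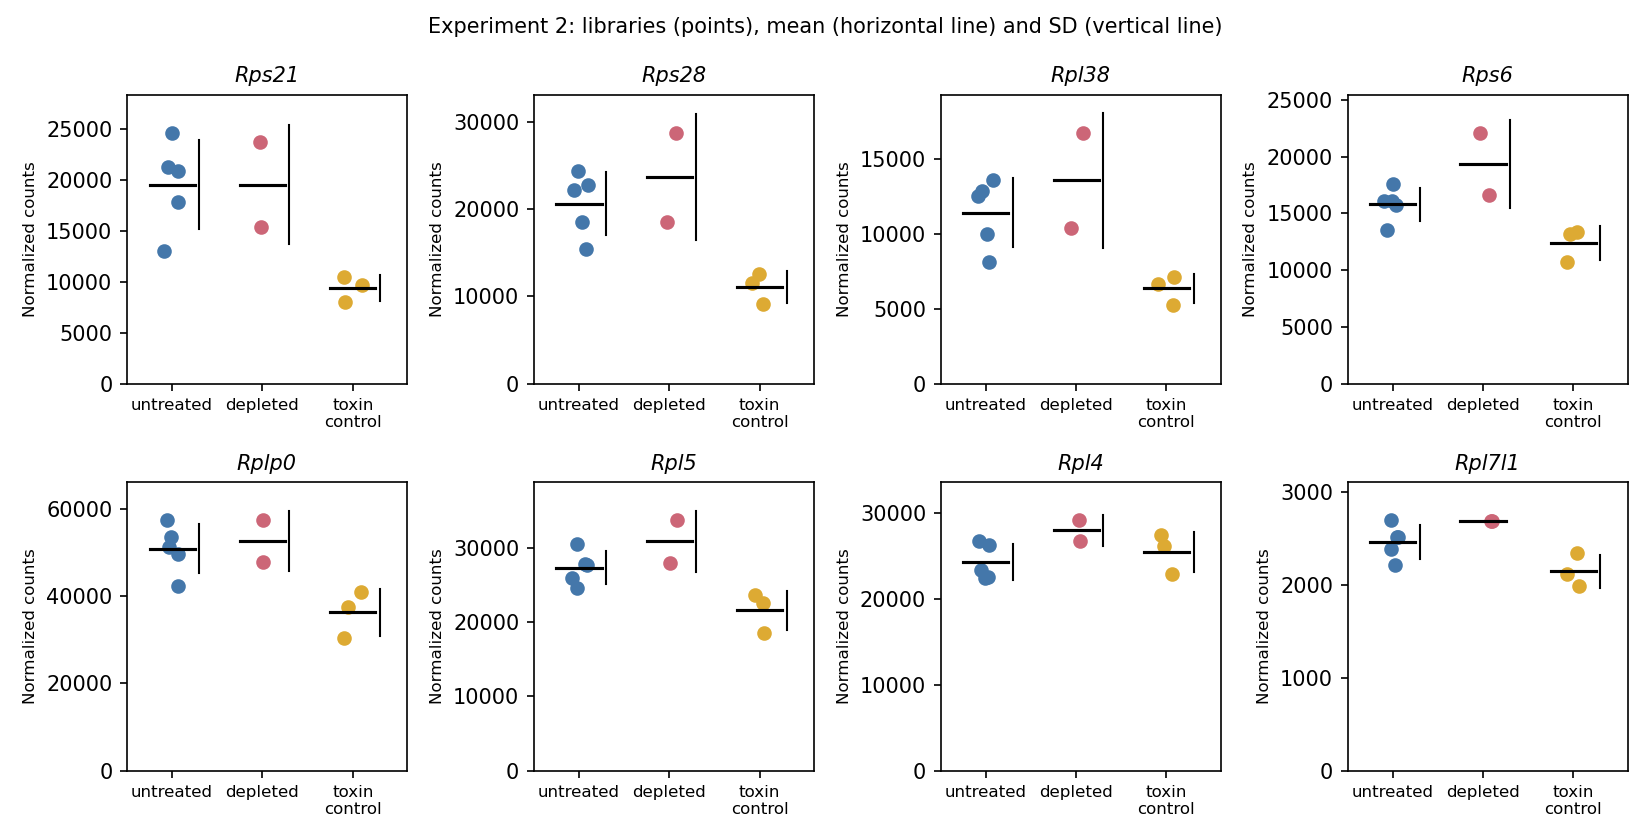
Normalized counts (y, linear axis from 0) of 8 ribosomal protein genes in experiment 2, each point 1 library, the horizontal line the group mean and the vertical line the SD. The 3 toxin control libraries lie below the 5 untreated ones for Rps21, Rps28, Rpl38, Rps6, Rplp0 and Rpl5, and overlap them for Rpl4 and Rpl7l1.

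Rpl4 (chr9:64173375-64178666), a large-subunit protein with a long extension into the exit tunnel, stood apart from the set, as seen after its values were known. It had 26261, 22417, 23344, 22515 and 26676 normalized counts in the untreated and 26088, 22861 and 27373 in the toxin control libraries. The groups overlapped fully, and its log2 change was 0.07 ± 0.10 (SE, adjusted p = 0.683, limma). With 1257 coding bases Rpl4 is the longest of the members, and 5 small RNA genes lie within it. It was the one protein-coding member with a positive change.

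The protein-coding paralogs above the minimum all had negative changes. Differences in size between them were not tested. Rpl22l1, which can take the place of Rpl22 and is repressed by it, fell by 0.74 ± 0.16 on the log2 scale, while Rpl22 itself fell by 0.64 ± 0.14 (adjusted p = 0.00909 and 0.0106, limma). Rps27l, known as a p53 target, fell by 0.76 ± 0.16, and Rps27 by 0.74 ± 0.17 (adjusted p = 0.00726 and 0.0107, limma). Rpl36al fell by 0.32 ± 0.10 and Rpl36a by 0.45 ± 0.12 (adjusted p = 0.0409 and 0.0238, limma).

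Rpl7l1, a homolog of Rpl7, had a change of -0.20 ± 0.08 and did not pass (adjusted p = 0.115, limma), while Rpl7 fell by 0.45 ± 0.10 (adjusted p = 0.0108). Per kb of mRNA, Rpl7l1 made up 6.26% ± 0.217 (SD, n = 5) of the Rpl7 and Rpl7l1 signal in untreated and 7.36% ± 0.176 (SD, n = 3) in toxin control libraries. The shares ranged from 6.03% to 6.62% and from 7.16% to 7.49%, without overlap. This difference in share was described after the values were seen and was not tested.

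Rps4l, the annotated pseudogene copy of the X-linked Rps4x, went the other way in its values. It had 48.2 to 131.9 normalized counts in the untreated libraries and 115.4, 118.8 and 124.0 in the toxin control, a log2 change of 0.50 ± 0.28 that did not pass (adjusted p = 0.236, limma). Rps4x fell by 0.46 ± 0.11 (adjusted p = 0.0130, limma). Rps12l1 and Rpl24 were too low for a firm statement, with a highest group mean of 37.7 normalized counts in experiment 2 and adjusted p of 0.478 and 0.557 (limma).

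The depleted libraries of experiment 2 were also compared with the toxin control, which had received the same toxin. The toxin control came from another strain, so strain and γδ T cell depletion cannot be told apart in this comparison. Here 74 of 82 members rose and 0 fell (adjusted p under 0.05, limma), against 4.58% of all tested genes called higher and 4.49% called lower. The median log2 change was 0.73 (66.0%), beside 0.00 for all tested genes. Both depleted libraries lay above all 3 toxin control libraries for 80 members, and 21.1% of all tested genes did so too. The 2 comparisons of this experiment share the toxin control libraries, so their changes are not independent, and their values are given side by side only.

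The members with the highest changes were Rps28, Rpl38 and Rps27. Rps28 had 28810 and 18565 normalized counts in the depleted and 9088 to 12626 in the toxin control libraries, a log2 change of 1.08 ± 0.20 (SE, adjusted p = 0.00676, limma). Rpl38 had 16750 and 10372 against 5272 to 7128 (1.06 ± 0.21, adjusted p = 0.00933). Rps27, a small-subunit zinc finger protein also called metallopanstimulin, had 31942 and 20486 against 10252 to 13840 (1.05 ± 0.21, adjusted p = 0.00975, limma). In each case depleted 4 was far above depleted 5, and both were above the toxin control.

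The lowest changes among members that passed were those of Rpl28 (0.46 ± 0.11), Rpl7 (0.47 ± 0.13) and Rpl6 (0.49 ± 0.13, SE). Rps6, Rpl5, Rpl11, Rpsa and Rpl41 rose by 0.63, 0.52, 0.57, 0.66 and 0.71 on the log2 scale (adjusted p from 0.0163 to 0.0351, limma). Rplp0 was at 52808 ± 6857 (SD, n = 2) and 36364 ± 5399 (SD, n = 3), a change of 0.54 ± 0.17 that missed the threshold (adjusted p = 0.0518, limma).

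Of the paralogs, Rpl22l1 passed here (0.85 ± 0.20, adjusted p = 0.0204, limma). Rps27l (0.64 ± 0.19, adjusted p = 0.0502), Rpl36al (0.33 ± 0.13, adjusted p = 0.105) and Rpl7l1 (0.33 ± 0.11, adjusted p = 0.0617, limma) did not. The genes they resemble, Rpl22, Rps27, Rpl36a and Rpl7, rose by 0.61, 1.05, 0.71 and 0.47. Without depleted 4 the changes of Rpl22l1, Rpl36a and Rpl11 were 0.53, 0.47 and 0.36. Rpl4 had 26651 and 29178 normalized counts in the depleted libraries, among and above the toxin control values of 22861 to 27373, with a change of 0.14 ± 0.13 (adjusted p = 0.524, limma). Rps4l had 74.6 and 45.5 counts in the depleted libraries, below the 3 toxin control libraries, and did not pass (-1.02 ± 0.35, adjusted p = 0.0745).

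Across both comparisons, 71 members passed in each, Rpl3, Rpl17 and Rpl21 passed only as higher in depleted than toxin control libraries, and Rpl36al, Rplp0 and Rps27l passed only as lower in toxin control than untreated libraries. Of all tested genes, 4.58% were higher in the first and 8.34% lower in the second. The share that passed in both is not given, and both comparisons use the same toxin control libraries. Rpl4, Rpl7l1, Rpl24, Rps4l and Rps12l1 passed in neither. Whether the changes of these genes differ from those of the other members was not tested.

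Single libraries carried much of the count. Without toxin control 2, the lowest library, 3 members were called lower than untreated (Rps21 and Rps28 among them) and 9 higher in the depleted group, although the median changes stayed at -0.51 and 0.65. Over all tested genes the calls then dropped to 196 in the first comparison, from 978 higher and 1115 lower, and to 236 in the second, from 612 higher and 600 lower. Without depleted 4, 0 members were called against the toxin control, where 39 genes were called in all, with a median of 0.50.

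**Figure D3:**
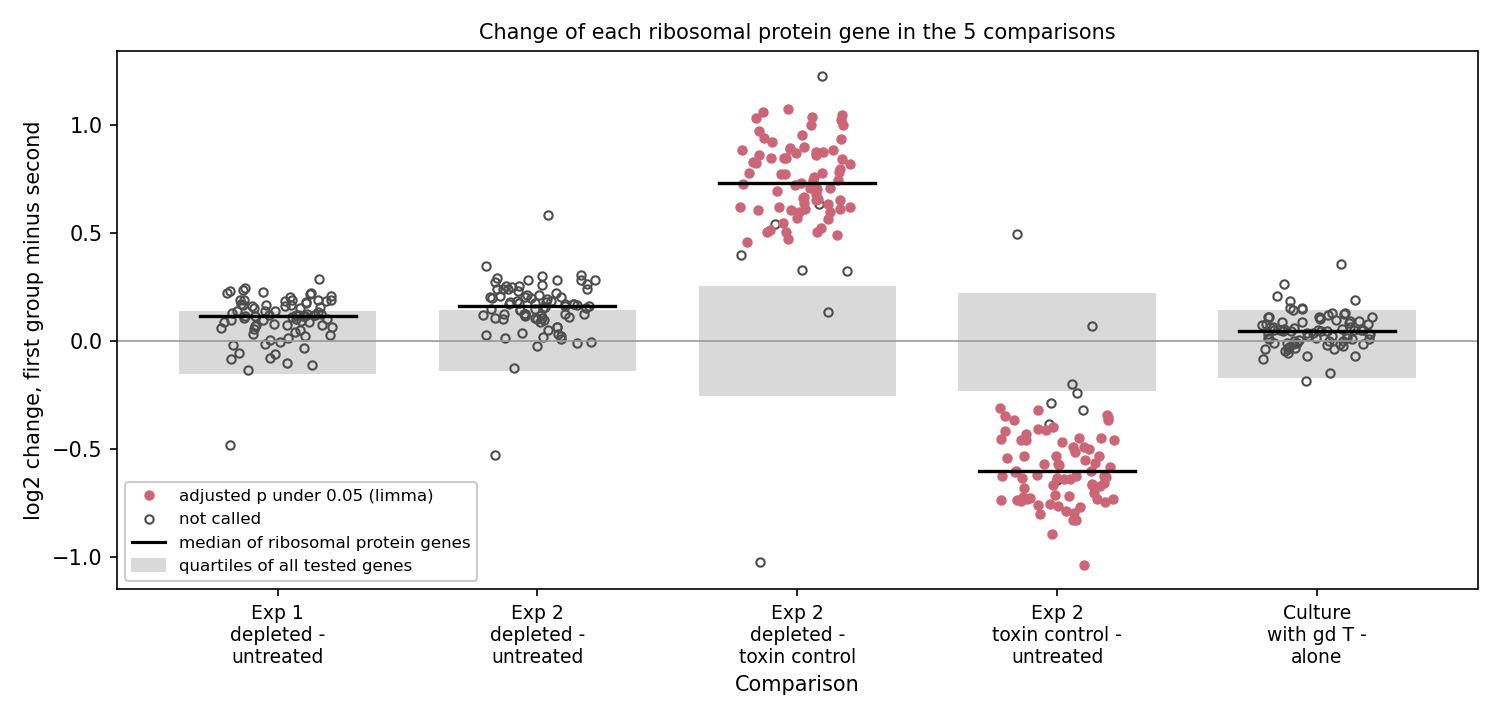
Log2 change of each ribosomal protein gene (points; filled where adjusted p is under 0.05) in the 5 comparisons, first group minus second, with the members' median (line) and the quartiles of all tested genes (grey). Changes lie around 0.73 for depleted against toxin control and -0.60 for toxin control against untreated, and around 0.12, 0.17 and 0.05 in the other 3 comparisons, where 0 members are filled.

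Depletion against untreated, the comparison within the Tcrd-GDL strain, gave 0 called members in both experiments. In experiment 2, 77 of 82 members had a positive change, beside 49.5% of all tested genes, and the median was 0.17 (12.1%). limma called 0 of 82 members, where 0.299% of all tested genes were called, and edgeR and DESeq2 each called 0. At an unadjusted p under 0.05 there were 3, beside 9.79% of all tested genes.

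The 3 members with the smallest p were Rpl21, Rpl3 and Rps6. Rpl21 had 34006 and 29732 normalized counts in the depleted and 24438 to 28800 in the untreated libraries (0.26 ± 0.11, adjusted p = 0.448, limma). Rpl3, which lines the peptidyl transferase centre, had 40932 and 34176 against 28334 to 34169 (0.28 ± 0.13, adjusted p = 0.467). For Rps6, depleted 5 at 16598 lay within the untreated range of 13527 to 17556 and depleted 4 at 22113 above it (0.28 ± 0.13, adjusted p = 0.499, limma). The groups did not overlap for Rpl21 and Rpl3 alone among the members, while 5.78% of all tested genes were higher without overlap.

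The 2 depleted libraries disagreed. The median member lay 0.38 above the untreated mean in depleted 4 and 0.06 below it in depleted 5, and 81 against 23 of the 82 members lay above that mean. Depleted 4 had 15.5% and depleted 5 had 11.8% of protein-coding reads on members, the first above and the second within the untreated range. Without depleted 4 the median change was -0.06 and 23 of 82 members were positive.

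Among the genes named in every comparison, the changes in this contrast were 0.05 for Rplp0, 0.17 for Rpsa, 0.17 for Rpl5, 0.16 for Rpl11 and 0.15 for Rpl41, with adjusted p from 0.71 to 0.951 in limma. The paralogs were at 0.13 (Rpl7l1), 0.11 (Rpl22l1), 0.01 (Rpl36al), -0.13 (Rps27l) and -0.53 (Rps4l). Rps27l made up 1.37% ± 0.175 (SD, n = 2) of the Rps27 and Rps27l signal per kb in depleted and 1.84% ± 0.172 (SD, n = 5) in untreated libraries, a difference that was not tested. The genes they resemble were at 0.30 (Rps27), 0.26 (Rpl36a), 0.16 (Rps4x), 0.02 (Rpl7) and -0.02 (Rpl22).

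In experiment 1, 68 of 80 members had a positive change, beside 48.0% of all tested genes, and the median was 0.12 (8.58%) beside -0.01. limma called 0 members, as it did for all tested genes (0%), edgeR called 0 members and DESeq2 0, and 2 members had an unadjusted p under 0.05 beside 8.83% of all tested genes. The 3 depleted libraries lay above the 3 untreated for 15 members and below them for 0, beside 7.29% of all tested genes above and 7.88% below.

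Rpl12, a protein of the stalk base, had 11227, 10500 and 10192 normalized counts in the depleted and 9328, 9311 and 8674 in the untreated libraries of experiment 1. All depleted values were higher, and the change was 0.22 ± 0.10 (SE, adjusted p = 0.556, limma). Rpl17, near the exit tunnel, had 13595, 12205 and 13015 against 11397, 11345 and 10429 (0.23 ± 0.10, adjusted p = 0.561). Rps15a had 8161, 6615 and 7178 against 6124, 6613 and 6030 (0.22 ± 0.11, adjusted p = 0.581, limma).

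Depleted 1, the library rich in Gm23935 reads, was also the one where the members were highest: their median lay 0.30 above the untreated mean, beside -0.01 and 0.09 in the other depleted libraries. Without it the median change was 0.03, with 53 of 80 members positive and 0 called, while 1097 genes were then called in all. The part of the Gm23935 reads in the higher values of depleted 1 was not tested. Rplp1, chosen after its values were seen, shows the pattern, with 21478 in depleted 1 and 11728 and 13077 in depleted 2 and 3, against 11180 to 13889 in the untreated libraries.

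In experiment 1, Rplp0, Rpsa, Rps6, Rpl5 and Rpl11 had changes from 0.07 to 0.14 and Rpl41 one of -0.11, with adjusted p from 0.701 to 0.905 in limma. The paralogs Rpl7l1, Rpl36al, Rps27l and Rps4l were at -0.08, -0.13, -0.08 and -0.48, and Rpl22l1 at 0.05, with overlapping groups in each case. The genes they resemble, Rpl7, Rpl22, Rps4x, Rpl36a and Rps27, ranged from -0.02 (Rpl7) to 0.19 (Rps27), with adjusted p from 0.605 to 0.965 in limma. Rpl36al made up 22.2% ± 1.70 (SD, n = 3) of the Rpl36a and Rpl36al signal per kb in depleted and 26.2% ± 1.07 (SD, n = 3) in untreated libraries, with ranges of 20.3% to 23.5% and 25.1% to 27.1%. That share was also lower in the depleted group of experiment 2, at 23.6% ± 3.14 (SD, n = 2) against 26.9% ± 1.05 (SD, n = 5), but there the ranges overlapped, from 21.4% to 25.8% and from 25.1% to 27.7%. Neither difference was tested.

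In culture with γδ T cells, limma called 0 of 82 members against culture alone, where 2.16% of all tested genes were called, and edgeR and DESeq2 each called 0 members. The median change was 0.05 (3.38%), 61 of 82 members had a positive change beside 49.2% of all tested genes, and 1 had an unadjusted p under 0.05, beside 12.6% of all tested genes. That was Rps27l, with 512.3, 558.0 and 489.5 normalized counts with γδ T cells and 398.2, 357.5 and 464.6 alone. Its groups did not overlap, which 7.94% of all tested genes showed in this direction, and its change was 0.36 ± 0.13 (SE, adjusted p = 0.246, limma).

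Rpl10, which lies at the catalytic core and joins late in assembly, had 17906, 19682 and 15883 normalized counts with γδ T cells and 14764, 13745 and 15966 alone, with overlap between 1 pair of libraries (0.26 ± 0.14, adjusted p = 0.49, limma). Rpl22l1 had 1181, 1408 and 1066 against 1007, 1028 and 1108 (0.21 ± 0.13, adjusted p = 0.562). Rplp0, Rpsa, Rps6, Rpl5, Rpl11 and Rpl41 had changes between -0.05 and 0.09. The paralogs Rpl36al, Rpl7l1 and Rps4l were at 0.05, -0.05 and -0.15, and Rps12l1, on few counts, at -0.19. Rpl22, Rps27, Rpl36a, Rpl7 and Rps4x were between -0.07 (Rps4x) and 0.11 (Rpl22). Between libraries of 1 group the members varied by more than this: their median was -0.21 in alone 2 and 0.18 in alone 3, relative to the mean of that group.

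The change of a member in the toxin control went with its coding length. Across the 80 members with a coding length the Spearman rho of log2 change and coding length was 0.57 for toxin control against untreated and -0.56 for depleted against toxin control. Among the other protein-coding genes it was 0.40 and -0.38 (n = 10860). These are correlations across genes that share the same libraries, given as a description. Single libraries, taken as deviations from the untreated mean, also showed a trend with length. The members' rho was 0.55, -0.56, -0.50, -0.62 and 0.55 in untreated 4 to 8, and 0.53, 0.51 and 0.56 in toxin control 1 to 3. A trend of this strength was therefore also present between untreated libraries, in both directions. Members of up to 450 coding bases had a median change of -0.66 in the toxin control (39 genes), those above 450 and up to 900 bases -0.48 (38 genes), and the 3 above 900 bases, Rplp0, Rpl3 and Rpl4, -0.32.

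Other short genes were lower in the toxin control too, by less. Their medians up to 450, up to 900 and up to 1500 coding bases were -0.29, -0.13 and -0.03, and genes above 1500 and up to 3000 coding bases, and above 3000, were at 0.08 and 0.19. In each class up to 1500 bases that held members, their median was lower than that of the other genes as normalized by the authors. After quantile normalization this did not hold for the 3 members above 900 bases, at -0.02 against -0.03 for other genes of that class. In the same libraries the share of reads on protein-coding genes was 55.2% to 60.3% in the toxin control and 43.5% to 52.6% in the untreated group, and reads of the mitochondrial genome made up 20.8% to 25.9% and 29.3% to 36.1%. The part of coding length and of library composition in the members' change was not tested.

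**Figure D4:**
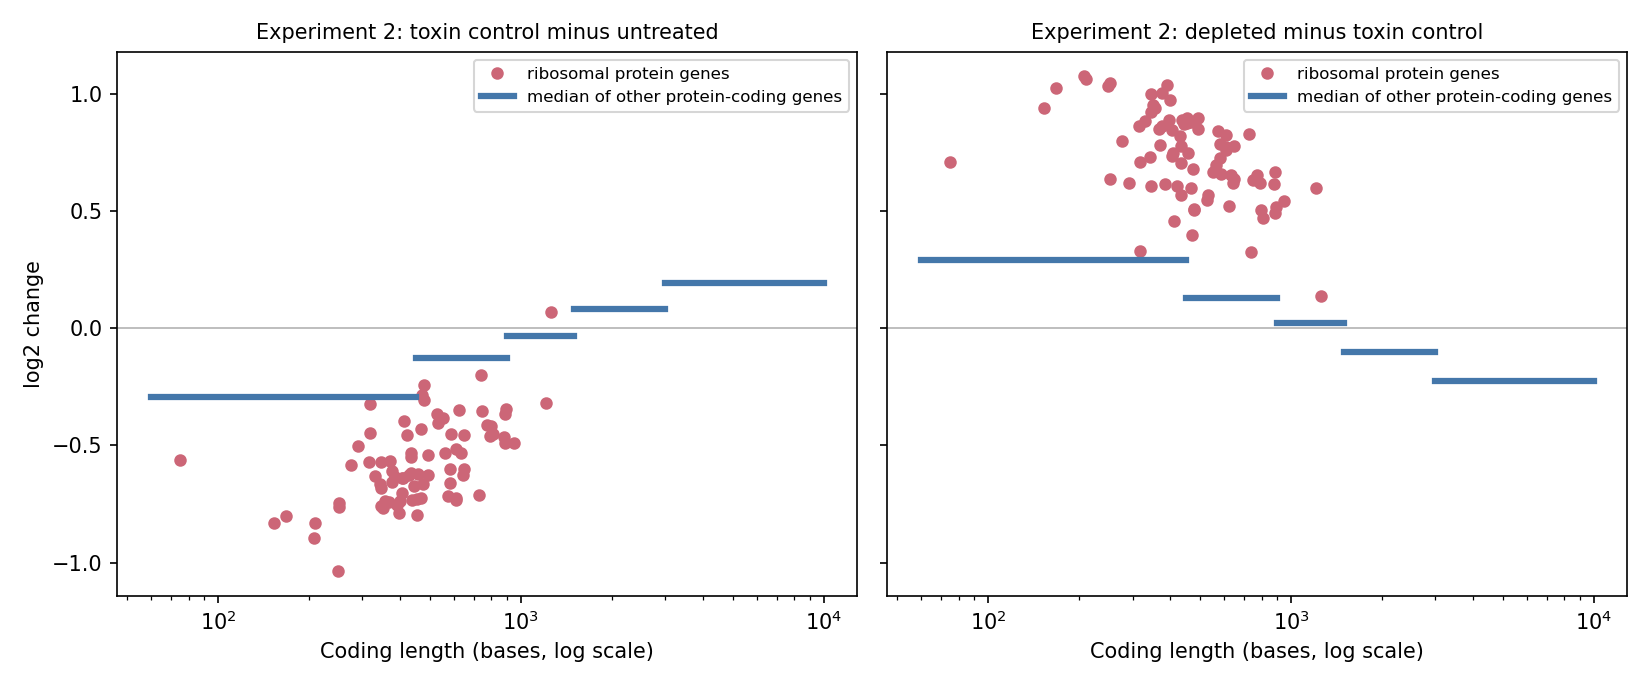
Log2 change (y) of the protein-coding ribosomal protein genes (points) against coding length in bases (x, log scale), for toxin control minus untreated (left) and depleted minus toxin control (right); blue lines are the medians of other protein-coding genes by length class. As normalized by the authors, the members run with length in the same direction as other genes, with medians by class of -0.66, -0.48 and -0.32 against -0.29, -0.13 and -0.03 on the left.

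Quantile normalization, which gives every library the same distribution of values, reduced these changes. The median became -0.38 (-23.1%) with 52 members lower for toxin control against untreated, beside 7.6% of all tested genes. For depleted against toxin control it became 0.44 (35.7%) with 44 members higher, beside 3.79%. The 30 small-subunit genes had medians of -0.47 and 0.50, and the P stalk -0.29 and 0.16. Rps21, Rps28 and Rpl38 remained called against untreated, at -0.94, -0.73 and -0.80. For depletion against untreated the medians were 0.06 in experiment 1 and 0.07 in experiment 2, and in culture the median was 0.02.

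Medians are given here for members with and without a pyrimidine run at the listed start, not matched for coding length. For toxin control against untreated the 29 members with a run had a median of -0.62 and the 31 without one -0.55. With and without CCGGAAG the medians were -0.62 (24 genes) and -0.59 (36 genes), and with and without AAGATGG -0.63 (10 genes) and -0.59 (50 genes). With and without CTTTCC they ran the other way, at -0.53 (25 genes) and -0.63 (35 genes). For depleted against toxin control the medians with and without a run were 0.82 and 0.66, and those with and without CTTTCC were 0.71 and 0.80. No test was made of these differences, and the start in RefSeq need not be the one these cells use.

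Other genes of the translation machinery moved in part with the members. Among 20 measured translation factors and other genes with a TOP start, 10 were lower and 2 higher in the toxin control than in untreated libraries (median -0.31), beside 8.34% and 7.32% of all tested genes. In depleted against toxin control libraries 8 were higher and 0 lower (median 0.28), beside 4.58% and 4.49% of all tested genes. Gnb2l1, the ribosomal scaffold protein also known as Rack1, was at 33379 ± 4020 (SD, n = 5) in untreated, 21822 ± 2203 (SD, n = 3) in toxin control and 33956 ± 5271 (SD, n = 2) in depleted libraries. Eef1d, a subunit of the elongation factor exchange complex, fell by 0.40 ± 0.08 in the toxin control. Eif4b, a helper of the initiation helicase, rose by 0.55 ± 0.11 there (adjusted p = 0.00759 and 0.00792, limma).

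Fau, which encodes a small-subunit protein fused to a ubiquitin-like part and was outside the symbol rule, rose by 0.79 ± 0.18 when depleted libraries were set against the toxin control (adjusted p = 0.0176, limma). Of 6 measured small nucleolar RNA host genes, whose transcripts also begin with a TOP tract, 2 fell in the toxin control (Gas5 by 0.45 ± 0.10 and Snhg12 by 0.63 ± 0.19) and 4 rose in depleted against toxin control libraries, Gas5 by 0.56 ± 0.12, Snhg12 by 1.08 ± 0.24 and Snhg6 by 0.87 ± 0.22 among them. Of all tested genes, 8.34% fell in the first contrast and 4.58% rose in the second.

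Ribosome biogenesis genes did not follow in one direction. Of 30, 4 were higher and 6 lower in the toxin control than in untreated libraries, with a median of -0.12, beside 7.32% and 8.34% of all tested genes. Ncl, the nucleolar protein nucleolin, rose by 0.64 ± 0.11, whereas Nop10, a small protein of the pseudouridylation complex, and Gnl3 (nucleostemin) fell by 0.80 ± 0.14 and 0.46 ± 0.11 (adjusted p from 0.00465 to 0.0154, limma). In depleted against toxin control libraries 2 were higher and 2 lower, beside 4.58% and 4.49% of all tested genes. In culture with γδ T cells 28 of the 30 had a positive change, beside 49.2% of all tested genes. Their median was 0.27, beside 0.05 for the ribosomal protein genes. 12 of the biogenesis genes were higher without overlap, beside 7.94% of all tested genes. An unadjusted limma p under 0.05 was found for 11, beside 12.6% of all tested genes. However, 0 passed in limma, where 2.16% of all tested genes were called in either direction, and 0 in edgeR and 0 in DESeq2.

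Of 17 regulators of ribosomal protein mRNA translation, 2 were higher in depleted than in toxin control libraries, 1 in depleted than in untreated libraries and 1 in toxin control than in untreated libraries. Of all tested genes, 4.58% were higher in the first contrast, 0.299% passed in either direction in the second and 7.32% were higher in the third. Ddit4, which inhibits mTORC1 under stress, was at 1674 ± 880 (SD, n = 2) in depleted, 251 ± 34 (SD, n = 3) in toxin control and 415 ± 138 (SD, n = 5) in untreated libraries. It rose in depletion against both, by 2.63 ± 0.31 and 1.96 ± 0.28 (adjusted p = 0.000263 and 0.00957, limma). Sesn1, another mTORC1 inhibitor, rose by 0.98 ± 0.24 against the toxin control, and Tsc1 rose by 0.37 ± 0.11 in the toxin control against untreated. In culture Sesn2 rose with γδ T cells, from 78.5 ± 5.80 to 153.3 ± 4.08 (SD, n = 3 each, 0.96 ± 0.16, adjusted p = 0.00717, limma). Of 10 measured p53 targets, Aen alone passed in experiment 2, as higher in the toxin control than in untreated libraries (0.38 ± 0.10, adjusted p = 0.0175), where 7.32% of all tested genes were higher.

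Nuclear genes of oxidative phosphorylation and of the mitochondrial ribosome were lower in the toxin control as well. Of 81 oxidative phosphorylation genes 51 fell and 0 rose (median -0.43), and of 77 mitochondrial ribosomal protein genes 25 fell and 0 rose (median -0.30), beside 8.34% of all tested genes that fell and 7.32% that rose. Atp5g2, a subunit of the ATP synthase ring, fell by 0.62 ± 0.10, Cox6a1 by 0.62 ± 0.11 and Ndufa3 by 0.57 ± 0.10. Mrpl24, Mrpl20 and Mrpl51 fell by 0.69 ± 0.11, 0.64 ± 0.12 and 0.45 ± 0.10 (adjusted p from 0.00299 to 0.011, limma).

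In depleted against toxin control libraries 21 of 81 oxidative phosphorylation genes rose (median 0.38; Atp5g2, Ndufa6 and Ndufb5 by 0.65 ± 0.13, 0.68 ± 0.17 and 0.60 ± 0.15) and 6 of 77 mitochondrial ribosomal protein genes rose (median 0.28; Mrpl20, Mrpl32 and Mrpl24 by 0.71 ± 0.15, 0.68 ± 0.19 and 0.51 ± 0.14), beside 4.58% of all tested genes. In depleted 4 the 2 lists lay at 0.03 and 0.04 over the untreated mean while the cytosolic members lay at 0.38. In culture both lists had positive medians, 0.11 and 0.09, with 0 called.

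**Figure D5:**
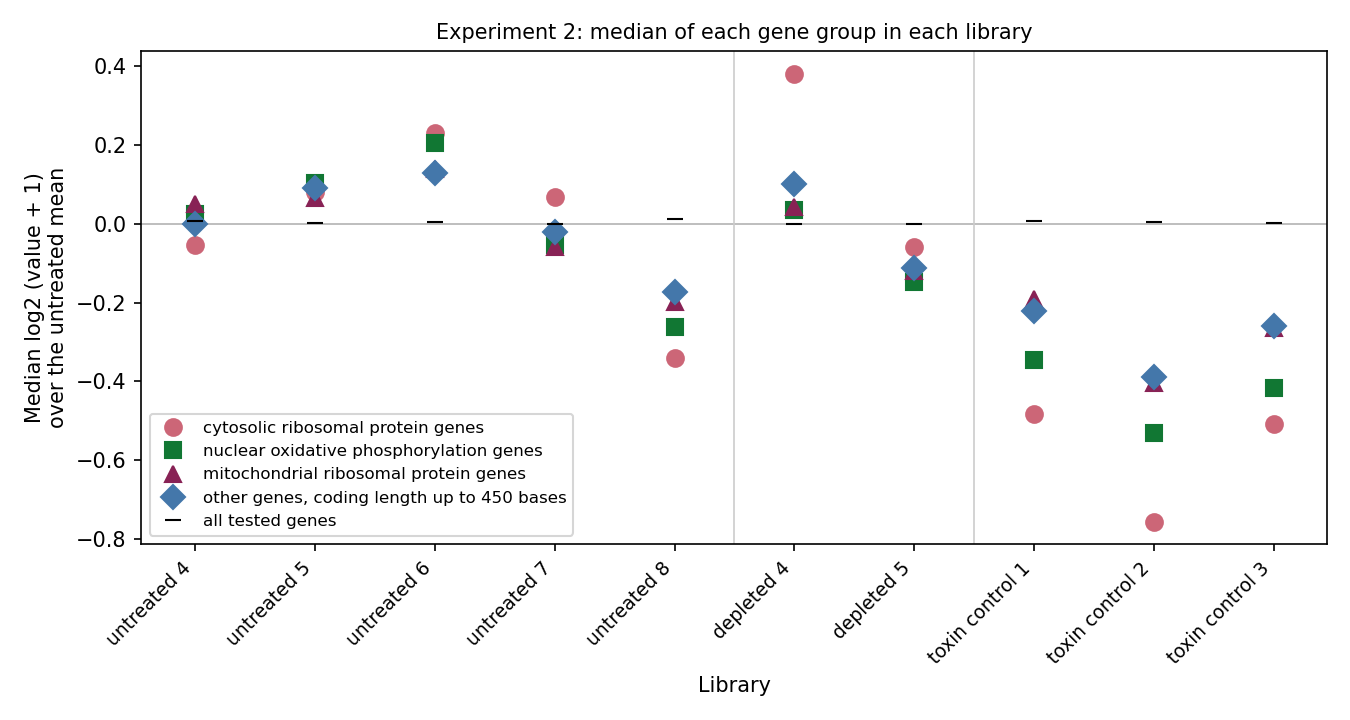
Median over each gene group of log2(value + 1) minus the untreated mean (y) in each library of experiment 2 (x). The cytosolic, mitochondrial ribosomal and oxidative phosphorylation genes lie below 0 in the 3 toxin control libraries, untreated 8 and depleted 5. Other genes of up to 450 coding bases do so too. The cytosolic genes are the lowest in toxin control 1 to 3 and untreated 8, at -0.48, -0.76, -0.51 and -0.34. In depleted 4 the cytosolic genes stand at 0.38, above the others.

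Several of these calls rested on toxin control 2 or depleted 4. Without toxin control 2, the genes of these lists that were still called against untreated among those named were Atp5g2, Cox6a1, Ndufa3, Mrpl24, Mrpl20, Ncl and Nop10, and against depleted libraries Ddit4 and Atp5g2. Without depleted 4, Ddit4 alone of the named genes was still called against the toxin control, and its adjusted p against untreated became 0.294 (limma). Leaving out depleted 4 lowered the change against the toxin control from 0.98 to 0.29 for Sesn1, from 0.87 to 0.38 for Snhg6, from 1.08 to 0.64 for Snhg12 and from 0.68 to 0.34 for Mrpl32. It lowered Mrpl20 to 0.45 and Ndufa6 to 0.44. Leaving out depleted 5 instead raised Sesn1 to 1.68, Snhg6 to 1.37 and Mrpl32 to 1.02.

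Markers of other cells differed between the same groups. Of 12 measured T cell markers, 6 were higher in the toxin control than in untreated libraries (median 1.25) and 3 lower in depleted than in toxin control libraries (median -1.43), beside 7.32% and 4.49% of all tested genes. Their summed level was 6973 to 7610 normalized counts in the toxin control, 5890 to 6874 in untreated and 5999 to 6286 in depleted libraries. Among 6 immature B cell markers, Rag1 and Cd93 were higher in the toxin control than in untreated libraries, and 5 were lower in depleted than in toxin control libraries, where the shares of all tested genes were the same 7.32% and 4.49%. Their sums were 26035 to 28077 in the toxin control, 22924 to 30730 in untreated and 14994 to 21001 in depleted libraries. Erythroid markers summed to 4362 in depleted 4 and 327 in depleted 5, with 852 to 2423 in untreated and 281 to 1644 in toxin control libraries. The part of these cells, or of B cell stage, in the level of the ribosomal protein genes was not tested. In culture, 2 of 6 immature B cell markers were lower with γδ T cells, where 2.16% of all tested genes were called in either direction. The sums of the 6 were 6668 to 9235 against 11706 to 13738 alone. In experiment 1 limma called 0 of all 11701 tested genes, so no marker list could hold a called gene.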

How the data were processed

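The authors deposited 3 tables of normalized counts, named so in the labels, and per the submitters' processing notes reads were demultiplexed with bcl2fastq and aligned with STAR 2.5.2b to mm10. How the values were scaled and which counter and annotation were used is not stated in the labels or headers. The deposited values are a scaled signal and not raw counts: in each column 100% were whole multiples of 1 unit (tolerance 0.01 reads), so reads were recovered by division. Those reads gave the depths and served the count models.

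log2(value + 1) was tested with limma 3.58.1 (R 4.3.3, trended empirical Bayes) on all genes with a table mean of at least 10, within each table, with Benjamini-Hochberg adjustment over all of them. The 3 groups of experiment 2 shared 1 fit. Errors on log2 changes are SE, and changes understate those of low genes. The alternatives were quantile normalization, pseudocounts of 0.5 and 10, other minimums, edgeR 4.0.16 (quasi-likelihood, TMM) and DESeq2 1.42.0 on recovered reads, the 2 groups alone, each library left out, and the replicate number as a block. The limma fit was tested on simulated counts that held no shift shared by a whole library, so that test does not cover such shifts.

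Named in each comparison were the 3 members with the highest and the 3 with the lowest change among those that passed (or the 3 with the smallest p), and, throughout, the paralogs with their relatives and Rplp0, Rpsa, Rps6, Rpl5, Rpl11 and Rpl41. Of other lists, up to 3 passing genes with the smallest p were named, and some items are not reported here. Rpl4, Rpl24, Rps12l1, Rplp1 and the members named by how many comparisons called them were chosen after their values were seen. The members and lists were chosen with earlier results of these data known. Positions, coding lengths and overlaps came from GENCODE M21 (GRCm38), which held between 98.8% and 98.9% of the gene IDs, and start windows and promoters from RefSeq (GRCm38.p6). Samples with the same number did not deviate together in all pairs, so the block is reported only with the alternatives. No library was left out.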

Additional observations from a re-analysis of the deposited data

Results flagged for a closer look

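Ndufb5, an oxidative phosphorylation gene, was at 1149 normalized counts in untreated 8 of experiment 2, and its gap to the nearest untreated library was 0.729 of the group's range, above the Dixon critical value for 5 samples. It was 1 of 60 series of untreated values screened in this way, and chance flags about 1 in 20.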

How the results depend on the processing

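The 0 calls in experiment 1, in depleted against untreated and in culture held under every alternative run. Under quantile normalization the members' median became 0.44 with 44 called for depleted against toxin control, beside 3.79% of all tested genes called higher. It became -0.38 for toxin control against untreated. The fit of the 2 groups alone called 44 for depleted against toxin control, and its share of all tested genes is not given here. Leaving out 1 library at a time gave 0 to 76 called members for depleted against toxin control (0 without depleted 4, 9 without toxin control 2) and 3 to 78 for toxin control against untreated (3 without toxin control 2), and medians from -0.059 to 0.38 for depleted against untreated in experiment 2 and from -0.062 to 0.14 in culture. Calls over all tested genes also changed with the library left out, as given above for toxin control 2 and depleted 4. The counts of members are therefore not a result about the members alone. The cause was not tested. With depleted 4 or 5 left out, the remaining depleted library takes its spread from the other groups. Counting error is small at these depths except for Rps4l, Rps12l1 and Rpl24.

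Some small changes of single members turned sign, none of them called. With quantile normalization, Rpl4 was at -0.25 for depleted against toxin control, Rplp0 at -0.026 in experiment 1 and -0.085 for depleted against untreated in experiment 2, and Rpsa at -0.075 in experiment 1. With edgeR and DESeq2, Rpl11 was at 0.019 and 0.018 and Rpsa at 0.00724 and 0.00642 in culture, and Rps27l at 0.034 and 0.057 in experiment 1. With 1 library left out, the ranges in culture were -0.10 to 0.12 for Rpl11, -0.064 to 0.17 for Rpl36al, -0.17 to 0.085 for Rpl41, -0.017 to 0.13 for Rpl5, -0.091 to 0.011 for Rpl7l1, -0.063 to 0.12 for Rplp0, -0.016 to 0.19 for Rps6 and -0.14 to 0.088 for Rpsa. In experiment 1 they were -0.14 to 0.15 for Rpl22l1, -0.24 to 0.013 for Rpl36al, -0.039 to 0.22 for Rplp0, -0.52 to 0.16 for Rps27l and -0.026 to 0.16 for Rpsa. For depleted against untreated in experiment 2 they were -0.045 to 0.37 for Rpl11, -0.22 to 0.43 for Rpl22l1, -0.056 to 0.073 for Rpl36al, -0.090 to 0.38 for Rpl41, -0.081 to 0.19 for Rplp0, -0.31 to 0.063 for Rps27l and -0.0029 to 0.35 for Rpsa.

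With the replicate number as a block, 0 members were called in experiment 1, in depleted against untreated of experiment 2 and in culture, with medians of 0.12, 0.17 and 0.05, while calls over all genes went from 0, 40 and 267 to 0, 150 and 448. Rpl36al was at -0.041 for depleted against untreated under the block. The deviations of same-numbered libraries had correlations of -0.02, -0.04 and 0.05 in experiment 1, -0.07 and -0.11 in experiment 2 and 0.20, -0.04 and 0.23 in culture, and not every library correlated best with its own number, so the numbers were not taken as pairs. Comparisons with the toxin control had no block.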
